A study of Mus musculus with 24 samples.

Results

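The liver X receptors (LXRs), the retinoid X receptors (RXRs) they pair with, and their co-regulators and targets were followed through 24 RNA-seq libraries of mouse brain. The 9 genes were taken by name from the 40836 genes of the count table: the LXR genes Nr1h3 and Nr1h2, the RXR genes Rxra, Rxrb and Rxrg, the target genes Srebf1 and Mylip, the co-repressor Ncor1 and the co-activator Ncoa1. All 9 passed the filter on low counts, which left 20437 genes for testing. The libraries carry a code E4 or E3 and a time code 05, 10 or 15, with 4 libraries in each of E4-05, E3-05, E4-10, E3-10, E4-15 and E3-15. The labels do not spell out these codes, and strain, age, sex and brain region are not given in the sources used here. The title of the series names ApoE4, microglial lipids, Asxl1 and LXR alpha, the product of Nr1h3. Each time code spans a pair of titled months, so time code and month cannot be told apart. The labels call the libraries biological replicates without naming animals.

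Total counts per library ran from 37366013 to 99501989. The 8 libraries whose column number in the count table is a multiple of 3 were E4-05 3, E4-10 2, E4-15 1 and E4-15 4, and E3-05 2, E3-10 1, E3-10 4 and E3-15 3. All 12 genes of a cerebellum and hindbrain list were higher in these 8 libraries, with summed levels of 1160 to 4793 CPM (counts scaled to library size) against 70.1 to 379 CPM in the other 16. None of the 12 was at 0 throughout either set. The 8 libraries are called the hindbrain-rich columns below, and the column set is a term in the fits reported unless stated otherwise. In bulk tissue, fewer cells of a type and less RNA per cell cannot be told apart.

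LXRs are nuclear receptors that sense oxysterols, the oxidised forms of cholesterol, and bind DNA as heterodimers with an RXR. Without ligand the pair holds co-repressors such as Ncor1 on its targets, and with ligand it recruits co-activators such as Ncoa1 and switches on genes for cholesterol export and lipid synthesis. In the brain, LXR targets include the sterol transporters of astrocytes and microglia that load cholesterol onto ApoE particles.

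Promoter windows of Srebf1, a direct LXR target, and of Rxrg and Nr1h3, the genes whose levels differ most, put the receptor motifs beside the values. RefSeq windows of 300 bases (250 before to 50 after a start, GRCm38.p6) were matched for 9 of 9 genes, 16 windows in all. Capitals mark matches, on either strand, to the receptor core NGGTCA and to a relaxed direct repeat of it with 4 bases between the repeats, spelled GGTNA and, after 5 bases of any kind, GGTCA. A match to the repeat therefore always contains a match to the core. The relaxed letters were chosen with the published LXR element of mouse Srebf1 in mind. The windows printed are those of Srebf1 and Rxrg with a match and, for comparison, a Nr1h3 window with none; the other 12, among them 2 of Srebf1, 1 of Nr1h3 and that of Mylip, are not printed. The positions of the printed windows are, for Srebf1, chr11:60210422-60210721 on the minus strand, for Rxrg, chr1:167598112-167598411 and chr1:167618015-167618314 on the plus strand, and for Nr1h3, chr2:91195067-91195366 on the minus strand.
Srebf1 window 3: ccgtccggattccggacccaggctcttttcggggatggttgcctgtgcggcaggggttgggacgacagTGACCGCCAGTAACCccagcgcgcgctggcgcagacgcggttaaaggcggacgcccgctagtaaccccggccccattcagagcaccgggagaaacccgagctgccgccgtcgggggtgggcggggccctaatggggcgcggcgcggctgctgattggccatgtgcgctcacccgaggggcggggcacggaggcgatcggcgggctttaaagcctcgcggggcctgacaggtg
Rxrg window 1: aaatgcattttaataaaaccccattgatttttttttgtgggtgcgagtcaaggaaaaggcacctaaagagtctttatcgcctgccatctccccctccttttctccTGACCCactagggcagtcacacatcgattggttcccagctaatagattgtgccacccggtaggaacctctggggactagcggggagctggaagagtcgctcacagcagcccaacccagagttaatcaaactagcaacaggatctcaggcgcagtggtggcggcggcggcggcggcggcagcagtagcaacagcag
Rxrg window 2: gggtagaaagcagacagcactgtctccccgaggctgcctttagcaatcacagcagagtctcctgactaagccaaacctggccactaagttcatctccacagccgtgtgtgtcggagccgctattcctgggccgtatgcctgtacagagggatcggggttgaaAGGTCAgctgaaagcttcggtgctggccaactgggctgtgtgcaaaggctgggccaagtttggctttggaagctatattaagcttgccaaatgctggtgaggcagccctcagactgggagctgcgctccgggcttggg
Nr1h3 window 1: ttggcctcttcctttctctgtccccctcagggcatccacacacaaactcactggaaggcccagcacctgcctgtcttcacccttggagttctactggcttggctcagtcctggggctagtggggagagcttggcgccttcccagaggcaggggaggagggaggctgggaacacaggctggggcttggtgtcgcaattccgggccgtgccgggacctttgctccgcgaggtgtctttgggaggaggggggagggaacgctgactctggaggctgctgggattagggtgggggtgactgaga
The Srebf1 window holds 1 relaxed repeat, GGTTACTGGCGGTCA on the opposite strand, and the match as printed begins 182 bases before the start. This motif occurs in 68 of 32851 promoter windows (0.207%) and in no other window of the 9 genes. The core NGGTCA alone is common: 40.4% of all windows hold it, and 4 of the 16 windows here do, namely the Srebf1 window above, both Rxrg windows and Rxra window 2, which holds 4 copies. A further 4 motifs were searched on both strands, and none of the 16 windows holds any of them. They were the strict direct repeats of AGGTCA with 4 bases (0.0152% of all windows) and with 1 base (0.0396%) between the copies, the sterol element TCACNCCAC (1.24%) and the E-box CACGTG (7.15%). A match describes the letters in the window and nothing about binding.

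Levels differed widely among the 9 genes. Per kilobase of exon, the median CPM over all 24 libraries was 22.0 for Ncoa1, 21.2 for Ncor1, 17.3 for Nr1h2, 14.8 for Rxrb, 12.1 for Srebf1, 7.87 for Rxra, 7.72 for Rxrg, 6.28 for Mylip and 1.34 for Nr1h3. Nr1h3 was below Mylip, the next above it, in all 24 libraries, and their ranges did not meet. Nr1h3 was the lowest of the 9 genes in 17 libraries, and Rxrg was the lowest in the other 7, all of them hindbrain-rich columns. The ranges of all other neighbours in this order overlapped. Ncoa1 was above Ncor1 in 16 of 24 libraries and Rxra above Rxrg in 14 of 24, so the order within these pairs is not fixed. Srebf1 was above Rxra in 24 of 24 libraries. Rxrg had the widest range, 1.07 to 36.6 CPM per kilobase.

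**Figure D1:**
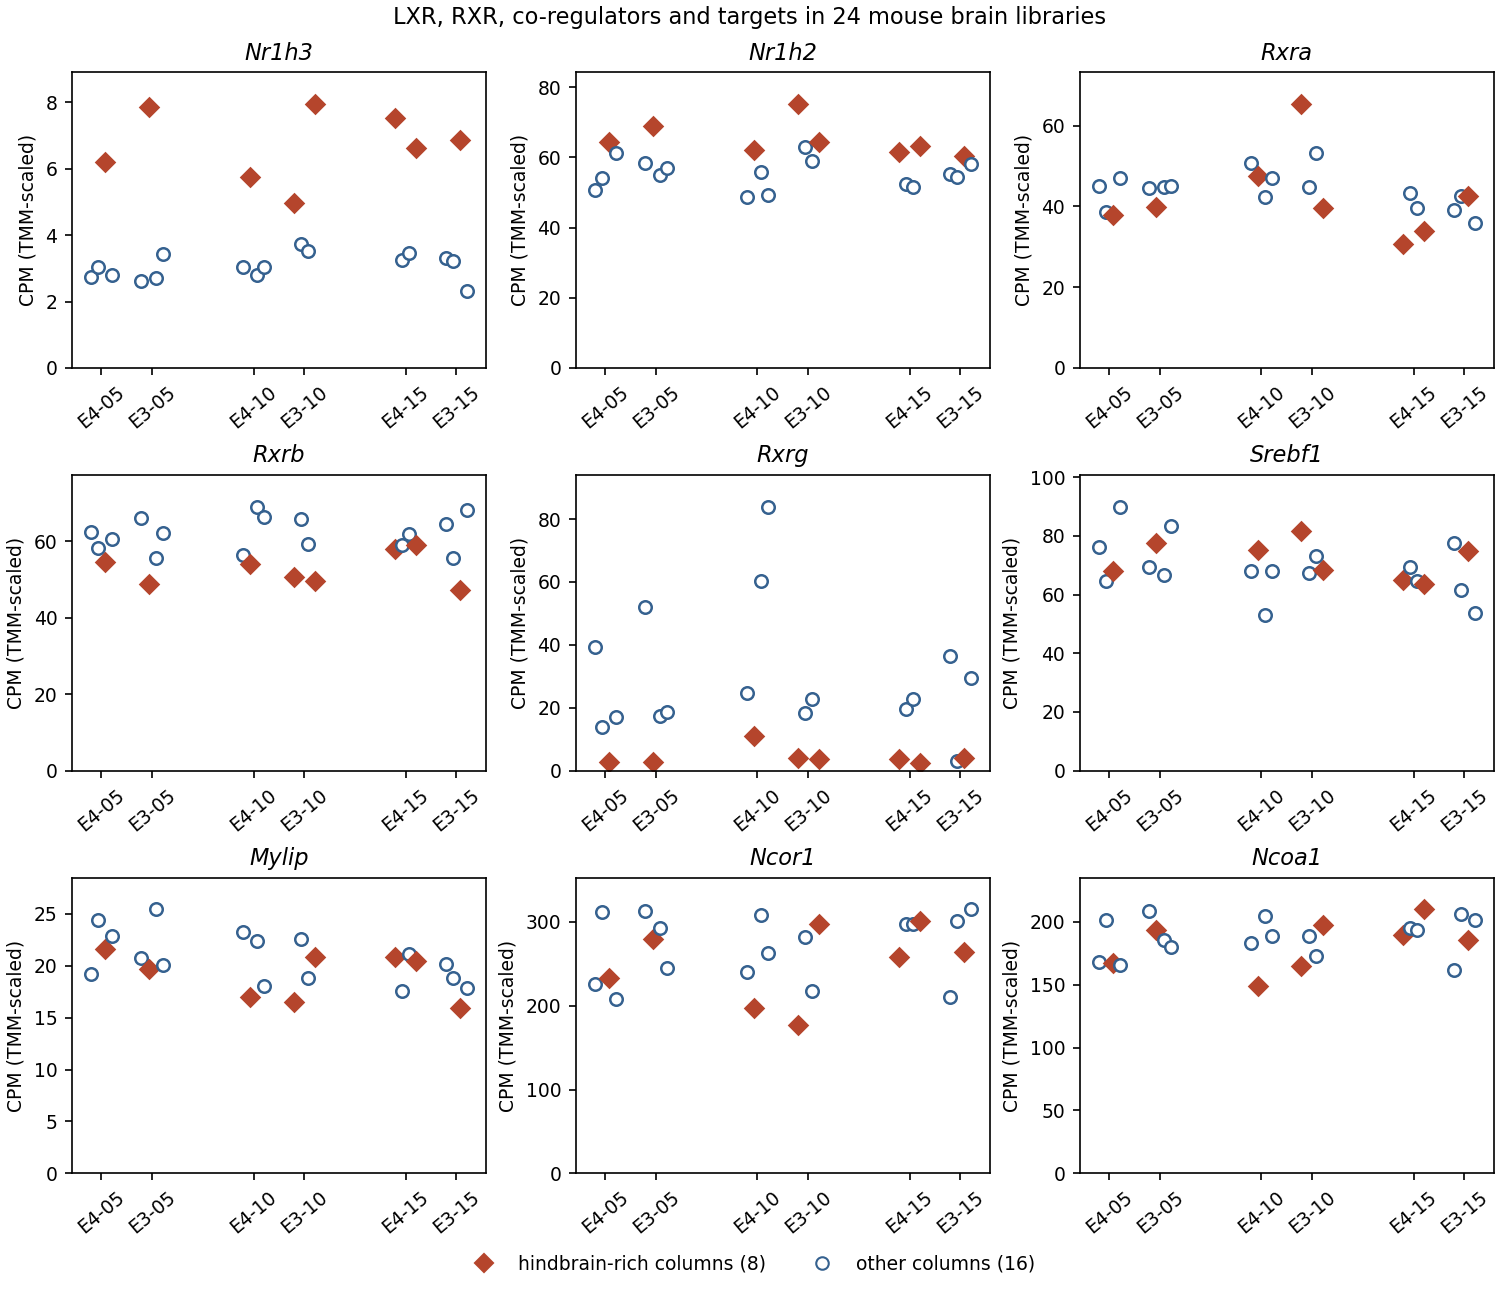
CPM (scaled by TMM factors) of each gene in the 24 libraries, by E code and time code; filled diamonds are the 8 hindbrain-rich columns and open circles the 16 other columns, spread sideways within a group in the order of library number. The filled Nr1h3 points lie between 4.97 and 7.95 CPM, above all open points, and the Rxrg points reach 84.0 CPM in the open circles only.

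Nr1h3, which encodes LXR alpha, was about 2-fold higher in the hindbrain-rich columns, and Nr1h2, which encodes the more widely expressed LXR beta, was slightly higher. In CPM, Nr1h3 had a lowest value of 4.97, a median of 6.74 and a highest value of 7.95 in the 8 hindbrain-rich columns, against 2.30, 3.04 and 3.73 in the 16 other columns. The column sets did not overlap for Nr1h3, which holds for 13.7% of all genes tested. The log2 fold change was 1.09 (SE 0.09, a 2.13-fold difference), with an adjusted p of 4.18e-09 by edgeR's quasi-likelihood test. Nr1h2 ran from 60.4 through a median of 63.8 to 75.2 CPM in the hindbrain-rich columns, against 48.8, 55.2 and 62.9 CPM in the others. The Nr1h2 sets overlap, and the log2 fold change was 0.23 (SE 0.04, adjusted p = 9.86e-05 by edgeR). These were 2 of the 4 calls among the 9 genes in this comparison, against a background of 57.5% of all genes called, 30.1% higher and 27.4% lower, so the share called among the 9 is no higher than that of genes at large. The median log2 fold change was -0.08 over the 9 genes and 0.04 over all genes.

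Cell type markers differed between the column sets in some lists more than in others, beside 30.1% of all genes called higher and 27.4% lower. Of 12 oligodendrocyte and myelin genes 1 was higher and 1 lower, and 0 of 8 endothelial genes were called. All 12 homeostatic microglia genes were lower in the hindbrain-rich columns, with summed levels of 177 to 274 CPM against 333 to 501 CPM in the others. Of 11 astrocyte genes 7 were higher and 1 lower, with summed levels of 4514 to 5975 CPM in the hindbrain-rich columns against 3887 to 5968 CPM in the others. Of 8 choroid plexus genes 5 were higher and none lower, with sums of 353 to 2978 CPM in the hindbrain-rich columns against 22.3 to 1102 CPM in the others. Of 11 genes of a disease-associated microglia list 2 were higher and 3 lower (median -0.02), with sums of 200 to 373 CPM in the hindbrain-rich columns against 186 to 240 CPM in the others. LXR alpha is known as a receptor of macrophages and microglia. No gene of these lists was at 0 throughout a column set, and their part in the Nr1h3 difference was not tested.

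Added per kilobase, the 2 LXR genes came to 22.1 ± 1.34 CPM in the hindbrain-rich columns (SD, n = 8) and 17.7 ± 1.24 CPM in the others (SD, n = 16), with no overlap. An exact two-sided permutation test gave the smallest p this design allows, 1e-06 (adjusted p = 2.86e-05 over the 21 receptor ratios and sums tested, a family chosen after the values were seen). Nr1h3 made up 12.2 ± 2.01% of this sum in the hindbrain-rich columns (n = 8) and 6.92 ± 0.892% in the others (n = 16; exact permutation test, adjusted p = 2.86e-05). Nr1h2 was thus the larger LXR transcript in every library, and the highest Nr1h3 share was 14.2%.

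By group, in the order of library numbers 1 to 4, Nr1h3 stood at 2.75, 3.04, 6.20 and 2.80 CPM in E4-05, against 2.62, 7.86, 2.71 and 3.44 CPM in E3-05. It stood at 3.03, 5.74, 2.81 and 3.04 CPM in E4-10, against 4.97, 3.73, 3.52 and 7.95 CPM in E3-10. It stood at 7.53, 3.26, 3.47 and 6.61 CPM in E4-15, against 3.32, 3.21, 6.87 and 2.30 CPM in E3-15. In each group the values over 4 CPM are those of the hindbrain-rich columns, and with both column sets together E4 and E3 overlap at all 3 time codes. Among the other columns only, Nr1h3 stood at 2.81 to 3.04 CPM in the 3 E4-10 libraries, below the 3.52 and 3.73 CPM of the 2 E3-10 libraries, a separation that 18.7% of all genes show in either direction between these few libraries. With the column set in the fit, E4 minus E3 was -0.12 (SE 0.16) at time code 05, -0.20 (SE 0.16) at 10 and 0.14 (SE 0.16) at 15 on the log2 scale. The average was -0.06 (SE 0.09), with an adjusted p of 1.00 by edgeR. The difference at time code 10 was -0.46 without the column term, and E3-10 holds 2 hindbrain-rich columns where E4-10 holds 1.

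Of the 9 genes Nr1h2 had the smallest p between the E codes at time code 10 and on average. It stood at 48.8, 62.2, 55.9 and 49.4 CPM in E4-10, against 75.2, 62.9, 58.8 and 64.3 CPM in E3-10. Among the other columns only, the 3 E4-10 libraries lie below the 2 E3-10 libraries, again beside the 18.7% of genes that separate there. In E4-15 and E3-15 the 2 and 3 other columns of Nr1h2 separate the same way, as 11.3% of genes do in either direction. The log2 fold change at time code 10 was -0.22 (SE 0.07, unadjusted p = 0.0041, adjusted p = 0.693), and the average over time codes was -0.11 (SE 0.04, unadjusted p = 0.00939, adjusted p = 1.00), both by edgeR. Neither passed the threshold of 0.05. Levels of some cell type lists also differed between E4-10 and E3-10, with 0 genes called. Of the lists named here, only mural and fibroblast separated the groups. The mean of the mural and fibroblast list was 4.25 to 4.47 log2 CPM in the 4 E4-10 libraries. In the 4 E3-10 libraries it was 4.94 to 5.07, while 1.86% of single genes separate these groups in CPM. By edgeR 0 of its 11 tested genes were called, and no listed gene was at 0 throughout. Its median log2 fold change was -0.62, with sums of 433 to 464 CPM in E4-10 against 510 to 616 CPM in E3-10. Other list medians were 4.05 for hypothalamus and pituitary, 0.84 for striatum and -0.81 for thalamus, with 0 genes called in each. The list means of these overlapped. They ran from 3.55 to 7.49 log2 CPM in E4-10 against 3.05 to 5.71 in E3-10 for striatum. For thalamus they ran from 3.97 to 5.49 against 4.45 to 7.01, and for hypothalamus and pituitary from 0.00 to 5.33 against -0.31 to 1.00. Of 8 choroid plexus genes 0 were called by edgeR, with a median of -1.09 and sums of 22.3 to 1025 CPM in E4-10 against 532 to 1866 CPM in E3-10. The part of these cells in the Nr1h2 and Nr1h3 differences was not tested. The summed LXR level in the 16 other columns was 17.0 ± 1.19 CPM per kilobase for the E4 libraries, against 18.4 ± 0.900 for those of E3 (SD and 8 libraries for both; exact permutation p = 0.0219, adjusted p = 0.0657).

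The RXR genes, which encode the shared partners of LXRs, thyroid hormone, retinoic acid and other receptors, went different ways between the column sets. Rxrg, the RXR with the most restricted expression and a known marker of the striatum, was lower in the hindbrain-rich columns. Its lowest, median and highest values there were 2.45, 3.60 and 11.0 CPM, against 3.14, 22.9 and 84.0 CPM in the other columns. The sets overlap through E3-15 2 alone, an other column at 3.14 CPM whose striatal marker mean was the lowest of the 16. The log2 fold change was -2.73 (SE 0.37, adjusted p = 2.45e-06 by edgeR). All 11 striatal marker genes were also lower, with summed levels of 307 to 410 CPM in the hindbrain-rich columns against 301 to 3785 CPM in the others and no gene at 0 throughout. With the mean of these 11 genes as a covariate the sign turned, to 0.54 (SE 0.26, adjusted p = 0.167 by edgeR). Nr1h2 above was no longer called (adjusted p = 0.0919 by edgeR), at 0.25 (SE 0.10) against 0.23 (SE 0.04) without the covariate. The covariate ran from 2.59 to 3.55 log2 CPM in the hindbrain-rich columns and from 3.63 to 7.49 in the others. With no overlap, this fit separates striatal markers from column set poorly.

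Rxrb was lower by less: 47.2, 52.3 and 58.9 CPM in the hindbrain-rich columns, against 55.7, 62.0 and 69.1 CPM in the others, as lowest, median and highest. The Rxrb log2 fold change was -0.24 (SE 0.05, adjusted p = 0.000567 by edgeR), and -0.03 (adjusted p = 0.895) with the striatal covariate. Rxra, the RXR of liver and other metabolic tissues, had 30.7, 39.7 and 65.4 CPM in the hindbrain-rich columns, against 36.0, 44.6 and 53.4 CPM in the others. The Rxra ranges nest, and its log2 fold change of -0.08 (SE 0.08, adjusted p = 0.374 by edgeR) did not pass. Library E3-10 1 holds the Rxra value of 65.4 CPM, and without it the log2 fold change was -0.17 (adjusted p = 0.0278).

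The make-up of the RXR pool followed. Rxrg made up 7.87 ± 4.10% of the RXR sum per kilobase in the hindbrain-rich columns (SD, n = 8) and 32.4 ± 13.1% in the others (n = 16; exact permutation test, adjusted p = 0.000419). Rxrb made up 58.6 ± 7.08% in the hindbrain-rich columns and 44.4 ± 8.16% in the others (exact permutation test, adjusted p = 0.00157). Rxra made up 33.5 ± 5.90% in the hindbrain-rich columns and 23.2 ± 5.54% in the others (exact permutation test, adjusted p = 0.00137). The 3 shares sum to a whole, so a low Rxrg share raises the others. The whole RXR sum was 22.9 ± 2.45 CPM per kilobase in the hindbrain-rich columns and 36.7 ± 9.76 in the others (exact permutation test, n = 8 and n = 16, adjusted p = 0.00224). RXR sums ran from 20.8 to 27.1 and LXR sums from 20.8 to 24.4 in the hindbrain-rich columns, while in the others the lowest RXR sum, 23.2, was above the highest LXR sum, 20.2.

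**Figure D2:**
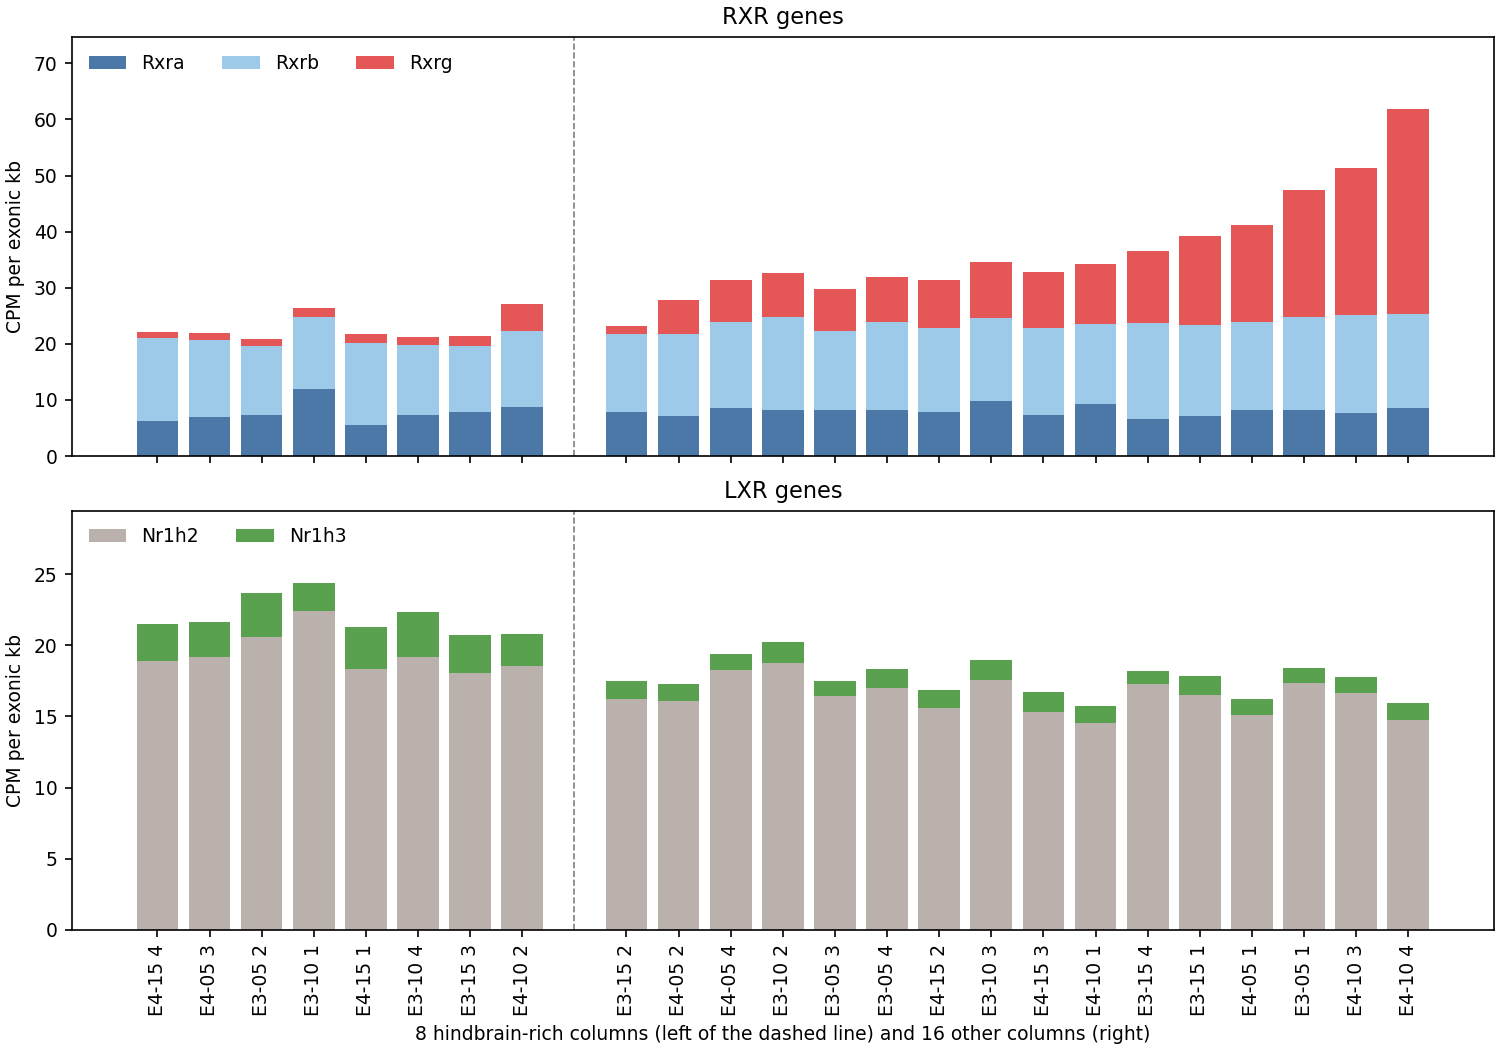
Stacked CPM per exonic kilobase of the RXR genes (upper panel) and the LXR genes (lower panel) in each library, with the 8 hindbrain-rich columns left of the dashed line and libraries ordered within each set by their Rxrg share. The Rxrg part grows to 59.1% of the RXR sum among the other columns, while the LXR sums stay between 15.8 and 20.2 there.

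Relative to its mean, Rxrg varied more than the other 8 genes in each of the 6 groups. It stood at 24.5, 11.0, 60.4 and 84.0 CPM in E4-10, against 4.02, 18.2, 22.9 and 3.61 CPM in E3-10. Among the other columns the 3 E4-10 libraries all lie above the 2 E3-10 libraries, again set beside the 18.7% of genes that separate there. None of the 9 genes separates the 4 libraries of E4-10 from the 4 of E3-10, as 1.86% of genes do, nor the other columns of E4-05 from those of E3-05 (6.32%). The log2 fold change at time code 10 was 1.41 (SE 0.53, unadjusted p = 0.0145, adjusted p = 0.943 by edgeR), 1.88 without the column term and 0.47 with the striatal covariate. Summed striatal markers ran from 338 to 3785 CPM in E4-10 and from 400 to 1086 CPM in E3-10. At the other time codes the Rxrg log2 differences were -0.27 (SE 0.51) at 05 and -0.19 (SE 0.52) at 15, so the sign at 10 was not shared.

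Rxrb in the hindbrain-rich columns stood at 54.7, 54.0, 58.1 and 58.9 CPM in the 4 E4 libraries, against 49.0, 50.6, 49.5 and 47.2 CPM in the 4 E3 libraries. All 4 E4 values lie above all 4 E3 values, as they do, in either direction, for 3.49% of genes. In the 16 other columns the E codes overlap, at 56.5 to 69.1 CPM in E4 and 55.7 to 68.3 CPM in E3. The interaction of E code with column set was 0.21 (SE 0.10, unadjusted p = 0.0384, adjusted p = 0.995 by edgeR) and was not called. Over all genes, 0% were called for this interaction.

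Rxra had the smallest p among the time codes. In the other columns its medians were 44.9, 47.0 and 39.5 CPM at time codes 05, 10 and 15, and in the hindbrain-rich columns 38.9, 47.5 and 33.9 CPM. Both sets are thus highest at time code 10 and lowest at 15, with overlap between 15 and 10 in each set (0.935% of genes do not overlap in the other columns and 8.77% in the hindbrain-rich ones). The log2 fold change of 15 minus 10 was -0.35 (SE 0.09, unadjusted p = 0.000798, adjusted p = 0.473 by edgeR). Its adjusted p ran from 0.112 (DESeq2) to 0.999 over 12 other settings, which include the fit reported at a stricter threshold of 0.01. It ran from 0.171 to 0.903 over leaving out each library by edgeR, so this change was called under none of them. The change of 10 minus 05 was 0.20 (SE 0.09, adjusted p = 0.999); the 3 time comparisons share libraries and are not independent.

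Srebf1, the gene of the lipogenic transcription factor SREBP-1 and a direct LXR target, did not follow Nr1h3 between the column sets. It had 63.6, 71.7 and 81.7 CPM in the hindbrain-rich columns as lowest, median and highest, against 53.0, 68.1 and 90.0 CPM in the others. The hindbrain-rich range lies inside that of the others, and the log2 fold change was 0.07 (SE 0.08, adjusted p = 0.460 by edgeR). Counts are per gene, so transcripts from different Srebf1 starts were not told apart. By E code, Srebf1 stood at 76.1, 64.5, 68.1 and 90.0 CPM in E4-05, against 69.3, 77.5, 66.8 and 83.4 CPM in E3-05. It stood at 68.1, 75.4, 53.0 and 68.0 CPM in E4-10, against 81.7, 67.2, 73.1 and 68.5 CPM in E3-10. It stood at 65.1, 69.3, 64.7 and 63.6 CPM in E4-15, against 77.7, 61.5, 74.9 and 53.7 CPM in E3-15. The E codes overlap at each time code, and E4 minus E3 was 0.01 (SE 0.12), -0.12 (SE 0.12) and -0.04 (SE 0.12) on the log2 scale at time codes 05, 10 and 15. The average was -0.05 (SE 0.07, adjusted p = 1.00 by edgeR). Srebf1 shares 109 exonic bases (1.93% of its exonic length in GENCODE M21) with Rai1 on the opposite strand, and the strand setting of the counting is not given in the sources used here.

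Mylip encodes a ubiquitin ligase, induced by LXR, that sends lipoprotein receptors for degradation. It had 15.9, 20.1 and 21.6 CPM in the hindbrain-rich columns, against 17.5, 20.5 and 25.4 CPM in the others, and the log2 fold change of -0.13 (SE 0.07, adjusted p = 0.145 by edgeR) did not pass. The Mylip medians of the other columns were 21.8, 22.4 and 18.8 CPM at time codes 05, 10 and 15, and 15 and 05 overlap (0.421% of genes do not). In the hindbrain-rich columns the medians were 20.7, 17.0 and 20.5 CPM, lowest at time code 10 rather than 15. The log2 fold change of 15 minus 05 was -0.17 (SE 0.08, unadjusted p = 0.0444) and that of Srebf1 -0.18 (SE 0.09, unadjusted p = 0.0552), with adjusted p of 0.956 for both by edgeR. No Mylip difference between E codes was called, and its average was 0.07 (SE 0.07).

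The co-regulators were the most abundant of the 9 genes, and neither was called in any comparison. Ncor1, the scaffold of a histone deacetylase complex, had 177, 261 and 301 CPM in the hindbrain-rich columns, against 208, 287 and 315 CPM in the others (log2 fold change -0.12, SE 0.10, adjusted p = 0.306 by edgeR). Ncoa1, a steroid receptor co-activator with acetyltransferase activity, had 149, 187 and 210 CPM in the hindbrain-rich columns, against 161, 189 and 209 CPM in the others (log2 fold change -0.06, SE 0.06, adjusted p = 0.409). The ratio of Ncor1 to Ncoa1 per kilobase was 0.916 ± 0.0874 in the hindbrain-rich columns (SD, n = 8) and 0.959 ± 0.0752 in the others (n = 16; exact permutation test, adjusted p = 0.478). Between E4 and E3 the average log2 differences were -0.03 (SE 0.09) for Ncor1 and -0.02 (SE 0.06) for Ncoa1. At time codes 05, 10 and 15 they were -0.21, 0.01 and 0.11 for Ncor1 (SE 0.16 each). For Ncoa1 they were -0.13, -0.01 and 0.08 (SE 0.10 each).

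None of the 9 genes was called between E4 and E3, between time codes, or in either interaction by edgeR, DESeq2 or limma-voom. By edgeR, all genes called between E4 and E3 were 0% at time code 05, 0.00979% at 10, 0% at 15 and 0% on average, with 549, 1023, 391 and 557 genes at an unadjusted p under 0.05. DESeq2 called 40 genes at time code 10. Between time codes 0% of genes were called for 10 minus 05, 0.0538% for 15 minus 05 (0.0294% higher and 0.0245% lower) and 0.00489% for 15 minus 10, and for the interaction of E code with time code 15 against 05, 0%. Genes at an unadjusted p under 0.05 numbered 824, 931, 1577 and 563 in these 4 comparisons, and 853 in the interaction with column set. Among the 9 genes, Nr1h2 and Rxrg at time code 10, Nr1h2 on average, Rxra for 10 minus 05 and 15 minus 10, Mylip for 15 minus 05 and Rxrb for the interaction with column set had an unadjusted p under 0.05. Leaving out Rxrg, the average E4 minus E3 log2 fold changes of the 9 genes lay between -0.11 and 0.07. A missed threshold does not show that the E codes act alike.

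**Figure D3:**
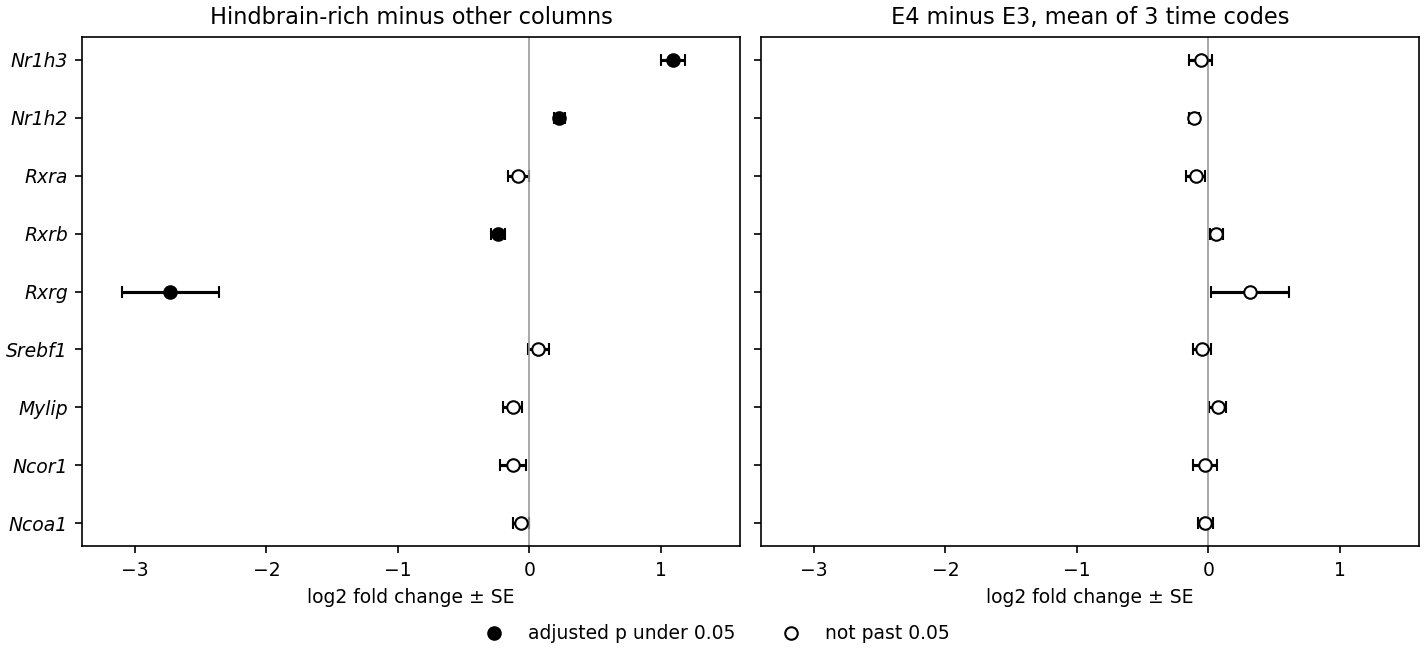
Log2 fold changes with their SE for the 9 genes, hindbrain-rich minus other columns at left and E4 minus E3 averaged over time codes at right; filled points have an adjusted p under 0.05. The 4 filled points are Nr1h3 at 1.09, Nr1h2 at 0.23, Rxrb at -0.24 and Rxrg at -2.73, all at left.

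Around the 9 genes, 7 lists of pathway genes held 77 genes, of which 74 were tested. Between the column sets 28 were higher and 21 lower in the hindbrain-rich columns, against the 57.5% of all genes called, and 0 of 74 were called by edgeR, DESeq2 or limma-voom in any other comparison, where 0 to 6 had an unadjusted p under 0.05 by edgeR. Of 13 RXR partner receptors 2 were higher and 6 lower (median log2 fold change -0.28, against 0.04 over all genes): the thyroid hormone receptors Thrb (-1.62, SE 0.13) and Thra (-0.73, SE 0.08), the orphan receptor Nr4a1 (-1.88, SE 0.34) and the retinoic acid receptor Rarb (-1.50, SE 0.27) were lower. Of 8 co-repressor genes 1 was higher, Gps2 (0.28, SE 0.08), and 2 lower, Tbl1xr1 (-0.41, SE 0.06) and Kdm1a (-0.12, SE 0.05), with a median of -0.03. Of 11 co-activator genes 4 were higher and 3 lower (median 0.08). The acetyltransferase Kat2b (1.48, SE 0.10) and Ppargc1b (0.97, SE 0.09) were higher, while Carm1 (-0.39, SE 0.06) and Asxl1 (-0.16, SE 0.04), a chromatin regulator that is named in the title, were lower.

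Among the target genes, the shares called in each direction stand beside 30.1% higher and 27.4% lower over all genes, and the difference between them was not tested. Of 12 genes listed as sterol export and lipoprotein targets of LXR 7 were higher and 2 lower (median 0.23). The list was drawn up by name, and control by LXR was not tested for any member, Abca7 included. The lipid transporter Abca7 (1.25, SE 0.07), Arl4c (0.52, SE 0.08) and the phospholipid transfer protein gene Pltp (0.33, SE 0.07) were higher. Lpl, which encodes lipoprotein lipase, was lower (-2.40, SE 0.25). The sterol transporters Abca1 (0.23, SE 0.06) and Abcg1 (0.23, SE 0.05) were higher and Apoe lower (-0.23, SE 0.05); these 3 are named after their values were seen. Of 13 lipid synthesis genes 7 were higher and 1 lower (median 0.24), led by Pnpla3 (1.62, SE 0.12), Thrsp (1.10, SE 0.11), Acacb (0.77, SE 0.09) and Elovl5 (0.53, SE 0.08), while Srebf1 itself was at 0.07 and not called. Of 10 genes that control SREBPs or are degraded through Mylip 5 were higher and 3 lower (median 0.14). The lipoprotein receptor gene Vldlr (0.49, SE 0.07) was higher, and Srebf2 (-0.59, SE 0.06), which encodes the SREBP of cholesterol synthesis, was lower. Of 7 oxysterol genes 2 were higher and 4 lower (median -0.53). Cyp27a1 (1.37, SE 0.14) and Hsd3b7 (1.18, SE 0.10) were higher, and the neuronal cholesterol 24-hydroxylase gene Cyp46a1 (-1.89, SE 0.08) and Sult2b1 (-1.34, SE 0.15) lower. The values in parentheses are log2 fold changes that passed edgeR's test.

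**Figure D4:**
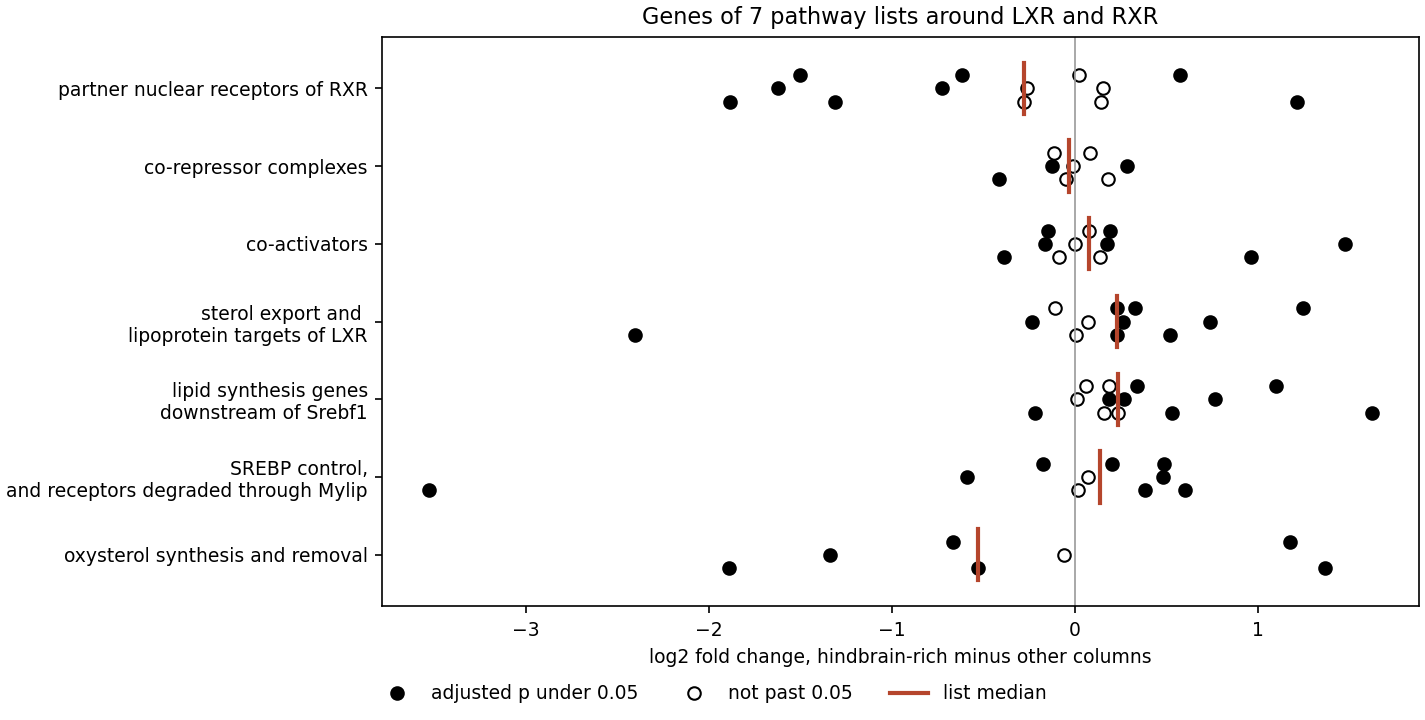
Log2 fold changes, hindbrain-rich minus other columns, of the 74 tested genes of the 7 lists; filled points have an adjusted p under 0.05, bars mark list medians, and points are spread vertically only for legibility. List medians run from -0.53 for the oxysterol genes to 0.24 for the lipid synthesis genes.

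Across libraries, 12 relations fixed by name were examined within the 16 other columns, since the column sets form separate clusters. Ncor1 and Ncoa1 varied together (Pearson r = 0.95, Spearman rho = 0.94; permutation p = 1e-05 for r, the smallest that the resamples allow, adjusted p = 6e-05), with r = 0.92 without the 2 libraries farthest from the median. In the 8 hindbrain-rich columns r was 0.90 (exact permutation adjusted p = 0.00972). Rxrg followed the mean of the striatal list, which does not contain it (r = 0.98, rho = 0.91; permutation p = 1e-05, adjusted p = 6e-05), with r = 0.95 without the 2 farthest libraries and 0.83 in the hindbrain-rich columns (exact permutation adjusted p = 0.00744). Srebf1 had r = 0.32 with Nr1h3 (rho = 0.18, permutation adjusted p = 0.556), 0.13 with Nr1h2 (rho = 0.15, adjusted p = 0.830) and 0.04 with Mylip (rho = -0.10, adjusted p = 0.902), none of which passed. In the 8 hindbrain-rich columns r was -0.46 with Nr1h3, 0.62 with Nr1h2 and -0.75 with Mylip (exact permutation adjusted p = 0.306, 0.186 and 0.152), and none passed there either. With the myelin list Srebf1 had r = 0.45 (rho = 0.30, permutation adjusted p = 0.305), and 0.12 without the 2 farthest libraries.

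Nr1h3 and the homeostatic microglia mean had r = -0.28 in the other columns (rho = -0.20, permutation adjusted p = 0.578) and r = -0.90 in the 8 hindbrain-rich columns (rho = -0.86; exact permutation p = 0.00174, adjusted p = 0.00972). Without E3-10 1 and E3-10 4, the lowest and highest for Nr1h3, r was -0.76 over 6 libraries. It was no longer called (exact permutation p = 0.075, adjusted p = 0.225), which the loss of those 2 libraries and the smaller number alike could bring. E3-10 1 had the lowest cerebellum and hindbrain mean of the 8 (5.95 log2 CPM) and the highest homeostatic microglia mean (3.97 log2 CPM).

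**Figure D5:**
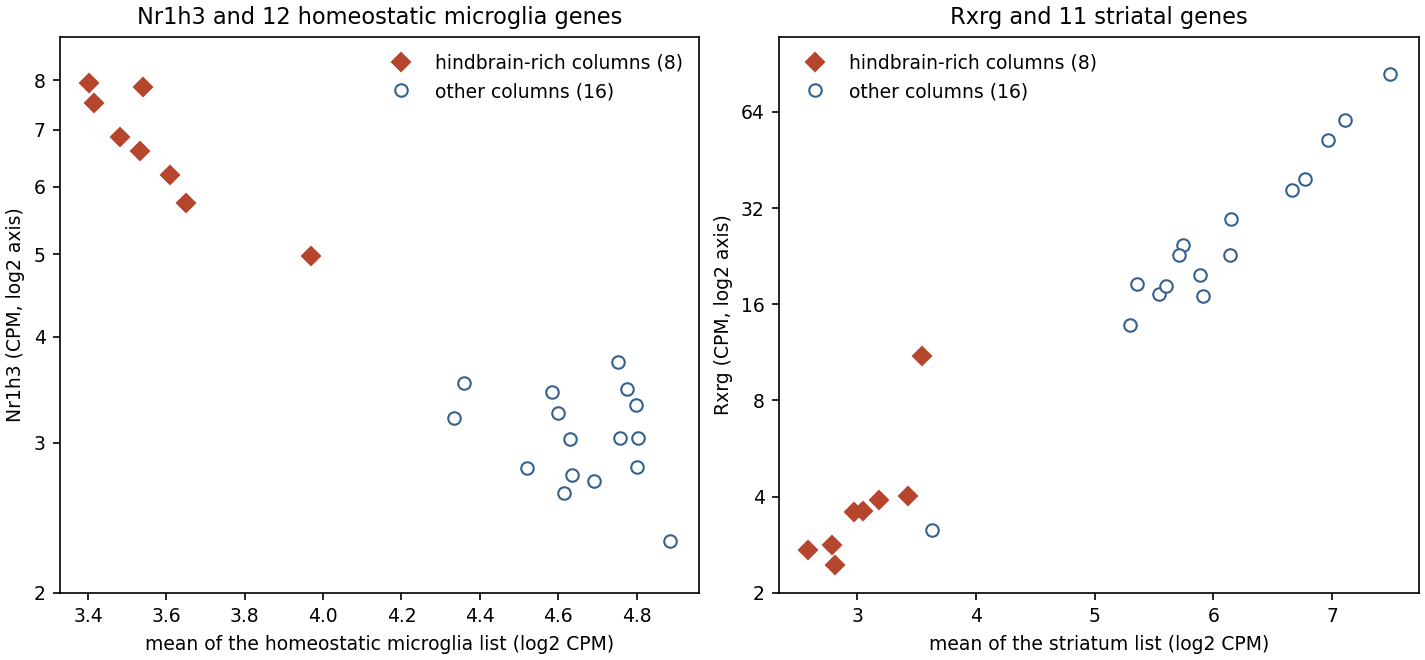
Nr1h3 against the mean of 12 homeostatic microglia genes (left) and Rxrg against the mean of 11 striatal genes (right), 1 point per library, with CPM on a log2 axis and list means in log2 CPM. Nr1h3 values of the hindbrain-rich columns fall as the microglial mean rises (r = -0.90, and -0.76 and not called without E3-10 1 and E3-10 4). In the other columns r was -0.28 and not called. Rxrg rises with the striatal mean in the other columns (r = 0.98).

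By the pattern over the 16 other columns, the 3 genes most like each of the 9 were listed among 10934 genes (10933 for all but Nr1h3) with a mean of at least 3 log2 CPM, as a description without a test. Those of Rxrg included the striatal genes Gpr6 and Ppp1r1b (Pearson r = 0.98 for both), members of the striatal list; in the hindbrain-rich columns r was 0.58 for Gpr6 and -0.69 for Ppp1r1b. Those of Nr1h3 were Cntrl (0.87), Arhgap17 (0.78) and Hinfp (0.75), and these had r of 0.85, 0.87 and 0.79 in the hindbrain-rich columns as well. Srebf1 was most like Ehd4 (0.95), Zfp395 (0.95) and P3h4 (0.90); in the hindbrain-rich columns Zfp395 had r = -0.86, while Ehd4 and P3h4 had 0.83 and 0.78. Ncor1 was most like Arhgap21, Kmt2e and Madd (0.97 to 0.98), and Ncoa1 most like Magi2, Stxbp5l and Cyfip2 (0.96 each). Nr1h2 was most like Cadm4, Rell2 and Abcc9, Rxra most like Asl, Mocs1 and Zfp598, Rxrb most like Stard10, Nup93 and Abcb9, and Mylip most like Tada1, Npas4 and Zkscan14, with r between 0.69 and 0.90. In the hindbrain-rich columns these 12 genes had r from 0.80 (Rell2 with Nr1h2) down to -0.85 (Zfp598 with Rxra).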

How the data were processed

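Polyadenylated RNA of mouse brain was sequenced in 24 libraries (TRIzol extraction, NEBNext Ultra kit, NovaSeq, per the labels' protocols). Reads were aligned with HISAT2 2.1.0 and counted with featureCounts 2.0.6 on mm39, per the submitters' processing notes; the annotation is not given in the sources used here. The deposited table holds whole-number counts, not normalized by the authors. Among counts of 1 to 19, 62.6% to 70.8% per library were even, so no counting interval is given. Genes were filtered with filterByExpr and fitted with edgeR 4.0.16 (R 4.3.3; quasi-likelihood F test, TMM factors, 6 groups plus the column set, 17 residual degrees of freedom, Benjamini-Hochberg over 20437 genes, threshold 0.05), and the fit was tested on simulated data. Alternatives were other factors, filters, terms and library sets, DESeq2 1.42.0 and limma 3.58.1. CPM per kilobase used merged exon lengths of GENCODE M21 (GRCm38), relations used log2 CPM with a prior count of 2 and 100000 resamples (SciPy 1.17.1), and promoters came from RefSeq (GRCm38.p6). The column set, the 9 genes, the marker and pathway lists and the tests were chosen with earlier results of these data known. Named genes outside the 9 were, per list, the 4 with the smallest p among those past the threshold, and the 3 most alike per gene; a few that meet these rules are not reported here. P-values judge a difference against the spread between libraries, all 24 of them in the fit reported. The permutation tests, unlike that fit, held no term for time code.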

Additional observations from a re-analysis of the deposited data

Results flagged for a closer look

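Dixon's test was applied to 63 groups of 4 or 8 libraries, and 7 held a library far from the rest; chance alone marks about 1 in 20 groups. These 7 values come from 5 libraries, 4 of them hindbrain-rich columns, since E3-05 2 and E4-10 2 appear under 2 genes each; for Rxrg the group was the hindbrain-rich columns themselves. Nr1h3 was highest by a wide gap in E4-05 3 (6.20 CPM, the other E4-05 libraries at 2.75 to 3.04), in E4-10 2 (5.74 CPM, the others at 2.81 to 3.04) and in E3-05 2 (7.86 CPM, the others at 2.62 to 3.44), each the only hindbrain-rich column of its group. Rxra was lowest in E3-05 2 (39.8 CPM, the others at 44.5 to 45.0), and Ncor1 was lowest in E4-15 1 (258 CPM, the others at 297 to 301). Rxrg was highest of the 8 hindbrain-rich columns in E4-10 2 (11.0 CPM, the others at 2.45 to 4.02), a library that also held 6099 CPM of the pituitary gene Gh; the part of Gh-rich tissue in this value was not tested. Ncoa1 was highest in E4-05 2 (202 CPM, the others at 166 to 168), which is not a hindbrain-rich column.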

How the results depend on the processing

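Of 3204 values of the 9 genes under other settings, 3079 kept direction and side of the threshold. A further 2 lost and 2 gained a call, 1 reversed and 120 uncalled values changed sign. The settings include the fit reported at a stricter threshold of 0.01, where no direction can change. Among alternatives other than leaving out a library, 1 gene was called between column sets with the striatal marker mean as a covariate and 4 in the others that had this comparison. Under that covariate Rxrg reversed to 0.54 (adjusted p = 0.167), Nr1h2 (0.25, adjusted p = 0.0919) and Rxrb (-0.03, adjusted p = 0.895) lost their calls, Nr1h3 kept its call at 0.87 (adjusted p = 0.0108), and 3427 of all genes were called, against 11753. The Nr1h2 estimate did not shrink under the covariate, and its SE was 0.10 against 0.04 in the fit reported. The cause was not tested. Leaving out 1 library at a time gave 4 or 5 calls between column sets. Mylip (-0.17, adjusted p = 0.0408) was gained without E4-15 2 and Rxra (-0.17, adjusted p = 0.0278) without E3-10 1. Nr1h3 then ran from 1.02 to 1.14 and Rxrg from -2.82 to -2.64. All other comparisons stayed at 0 called among the 9 genes. All genes called ranged from 0 to 40 for E4 minus E3 at time code 10 (2 in the fit reported), 0 to 18 for 10 minus 05 (0), 0 to 36 for 15 minus 05 (11) and 0 to 17 for 15 minus 10 (1), each highest by DESeq2. Over all 24 columns the likeness reversed for Rxra with Mocs1 (-0.0361) and Zfp598 (-0.28) and for Rxrb with Stard10 (-0.0103). In the 8 hindbrain-rich columns 3 of 12 relations were called, against 2. With a replicate block the calls between column sets stayed at 4 and all others at 0; libraries of the same number did not deviate together (median r = -0.01 over 60 pairs, 0.01 over 180 pairs of different numbers), and 3 of 24 correlated best with their own number. Nr1h3, at 84 to 543 counts per library, is the gene that depth limits most.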
